A study of Mus musculus with 6 samples.

Results

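The genes described here carry calcium across B cell membranes: the store-operated entry channel genes Orai1, Orai2 and Orai3, their sensors Stim1 and Stim2, the IP3 receptors Itpr1, Itpr2 and Itpr3, the SERCA pump Atp2a3, and the voltage-gated channel gene Cacna1a. They were found by symbol, 10 of 10, among 24499 genes in the deposited count table. Cacna1a was chosen by its strong rise in the comparison described below, so its values are given as a description with no test. The other 9 were taken for their role in B cell calcium. RNA-seq covered sorted YFP+ induced germinal center B cells (iGCBs) at day 3 from 3 cKO and 3 control mice, each library from one mouse. The cKO genotype, on C57BL/6J, is Eif3e fl/fl with Cγ1Cre and Rosa26-YFP LSL. Eif3e encodes a subunit of the translation initiation factor eIF3. The labels call the other group control and give no alleles. The study describes control mice of its in vivo work as Cγ1Cre with Rosa26-YFP LSL, which is not stated for these libraries themselves, and cells of both groups were sorted as YFP+. Transcription of the Ig γ1 constant region drives this Cre, which therefore acts in B cells only after activation, and YFP marks cells in which it has acted. Naïve splenic B cells grew for 3 days on 40LB cells, 3T3 fibroblasts that express CD40L and BAFF and had received 120 Gy, with IL-4 at 1 ng/ml. The general culture protocol gives a longer time than the sample labels and the RNA-seq methods, and mouse age is not given in the labels.

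B cells raise cytosolic calcium in steps. Phospholipase C makes IP3 downstream of the B cell receptor, IP3 receptors release calcium from the endoplasmic reticulum (ER), and STIM proteins in the ER membrane sense the emptied store and open ORAI channels in the plasma membrane. SERCA pumps carry calcium back into the ER, and the calcium that enters drives calmodulin, calcineurin and NFAT. Voltage-gated calcium channels, by contrast, are best known from neurons and muscle. Cacna1a encodes the pore of the P/Q-type channel of nerve terminals.

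Levels are given in CPM, estimated counts scaled to library size with TMM factors, and differences as log2 fold changes of cKO over control with their standard error (SE). The SE was taken as the absolute log2 fold change divided by the square root of the quasi-likelihood F statistic. A gene passed when edgeR's quasi-likelihood test gave a Benjamini-Hochberg adjusted p under 0.05 over the 13296 genes tested. Library totals ran from 39079582 to 45504570 estimated counts. Eif3e, the deleted gene, averaged 158 ± 13.1 CPM in cKO (SD, n = 3) against 406 ± 16.5 CPM in control (SD, n = 3), which is 39.0% of control. B cell markers were well expressed in both groups, with Cd79a at 731 to 797 CPM in cKO and 967 to 1030 CPM in control, and Pax5 at 189 to 208 CPM in cKO and 131 to 151 CPM in control. Ms4a1 and Pax5 rose, and Cd79a, Cd79b, Cd22 and Blk fell. Germinal center markers were present in both groups, at a sum of 269 to 278 CPM in cKO and 355 to 427 CPM in control, and 4 of these 6 genes fell while 1 rose. Plasma cell markers summed to 646 to 788 CPM in cKO and 831 to 852 CPM in control, and all 5 tested passed. Irf4 and Sdc1 rose, by 0.42 and 1.60 on the log2 scale, while Jchain fell by 4.00, Prdm1 by 1.13 and Xbp1 by 1.10. Fibroblast markers, which the feeder cells could bring, summed to 104 to 130 CPM against 78.7 to 144 CPM, with Lum and Postn at 0 in all 6 libraries and 2 of 8 tested higher in cKO (Col5a1 and Fn1). Myeloid markers summed to 12.1 to 13.6 CPM against 9.90 to 12.7 CPM, and 1 of 3 tested rose, Adgre1, at 3.64 to 5.54 CPM in cKO against 0.620 to 2.02 CPM in control. T cell markers, nearly all of it Lck, summed to 23.3 to 25.7 CPM against 36.5 to 39.7 CPM, with Cd3e at 0 throughout. The part of these marker differences in the results was not tested. Xist was at 1184 CPM in cKO 2, 1305 CPM in control 1 and 1804 CPM in control 2, and at no more than 0.389 CPM in the other 3 libraries, so sex differs among the mice within each group.

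Of the 9 members taken for their role, 3 rose (Orai1, Stim2 and Itpr1), 3 fell (Atp2a3, Itpr2 and Itpr3) and 3 did not pass (Orai2, Orai3 and Stim1). Of all genes tested, 48.6% passed, 24.1% higher and 24.5% lower in cKO. Orai1 rose and Atp2a3 fell by more than 1.5-fold, the fold cutoff of the study, against 21.0% of all genes with both cutoffs met. For 6 of the 9, all cKO libraries lay on the same side of all control libraries, against 58.7% of all genes tested. The median log2 fold change of the 9 was -0.04, and that of all genes was -0.0040. A bulk library cannot tell apart fewer cells of a type and less RNA per cell.

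**Figure D1:**
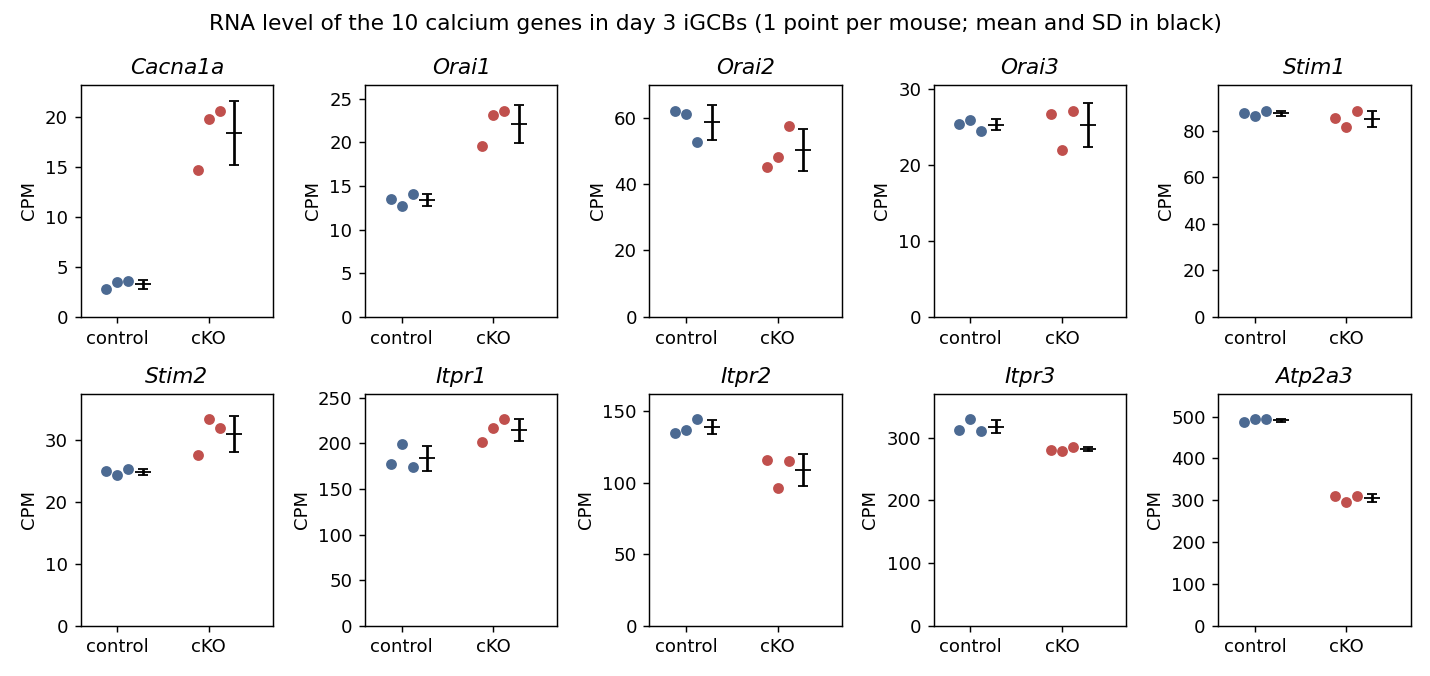
RNA level of each gene in CPM (y axis, from 0) in control and cKO libraries, 1 point per mouse, with the mean and SD in black beside the points. Cacna1a and Orai1 lie higher in all 3 cKO libraries, Atp2a3 lies lower in all 3, and the points of Orai2, Orai3 and Stim1 overlap between the groups.

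ORAI proteins form the calcium-selective pore of store-operated entry, and ORAI1 is the best known of them in lymphocytes. Orai1 lies at chr5:123015074-123030456 on the plus strand of GRCm38 (GENCODE M21). It was at 19.5, 23.1 and 23.6 CPM in cKO 1, 2 and 3, and at 13.5, 12.7 and 14.1 CPM in control 1, 2 and 3. Every cKO library was above every control library. The mean was 22.1 ± 2.22 CPM in cKO and 13.4 ± 0.683 CPM in control (SD, n = 3 each), 1.65-fold higher. Its log2 fold change was 0.72 (SE 0.108, edgeR quasi-likelihood adjusted p = 0.000361).

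Orai2, which is also expressed in lymphocytes and can join ORAI1 in mixed channels, overlapped between groups. It lies at chr5:136147459-136170713 on the minus strand. Its level was 45.1, 48.1 and 57.4 CPM in cKO and 62.1, 61.2 and 52.5 CPM in control. The groups overlap because cKO 3 lies above control 3. This difference of -0.22 on the log2 scale (SE 0.101) did not pass (edgeR adjusted p = 0.0925). It passed without cKO 3, at -0.33 (edgeR adjusted p = 0.0190), and without control 3, at -0.29 (edgeR adjusted p = 0.0363), so the call depends on these 2 libraries.

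Orai3 encodes the third channel of the family, which is found only in mammals. It lies at chr7:127769815-127775150 on the plus strand. Its level was 26.7, 22.0 and 27.2 CPM in cKO and 25.4, 26.0 and 24.5 CPM in control, so the control values lie inside the cKO range. The means were 25.3 CPM in both groups. The SE of its log2 fold change was 0.100, and edgeR's adjusted p was 0.9995.

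Per length the 3 channel genes came closer together in cKO. Dividing the CPM of each RefSeq transcript by its length gave Orai1 11.8 ± 1.18 CPM per kilobase in cKO and 7.16 ± 0.364 in control, Orai2 12.8 ± 1.64 and 15.0 ± 1.35, and Orai3 12.7 ± 1.43 and 12.7 ± 0.366 (SD, n = 3 each). Orai1 made up 31.6% ± 2.62 of the family sum in cKO and 20.6% ± 1.80 in control. The share of Orai2 was 34.4% ± 1.62 in cKO and 43.0% ± 2.22 in control. Neither of these shares overlapped between groups, and that of Orai3 did. The family sum itself was 35.3, 35.6 and 40.9 CPM per kilobase in cKO and 35.8, 35.4 and 33.2 in control, so the sums overlap. With 3 libraries a group, an exact permutation test of a share or sum cannot go below p = 0.10 (two-sided), so these values are given without a p.

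**Figure D2:**
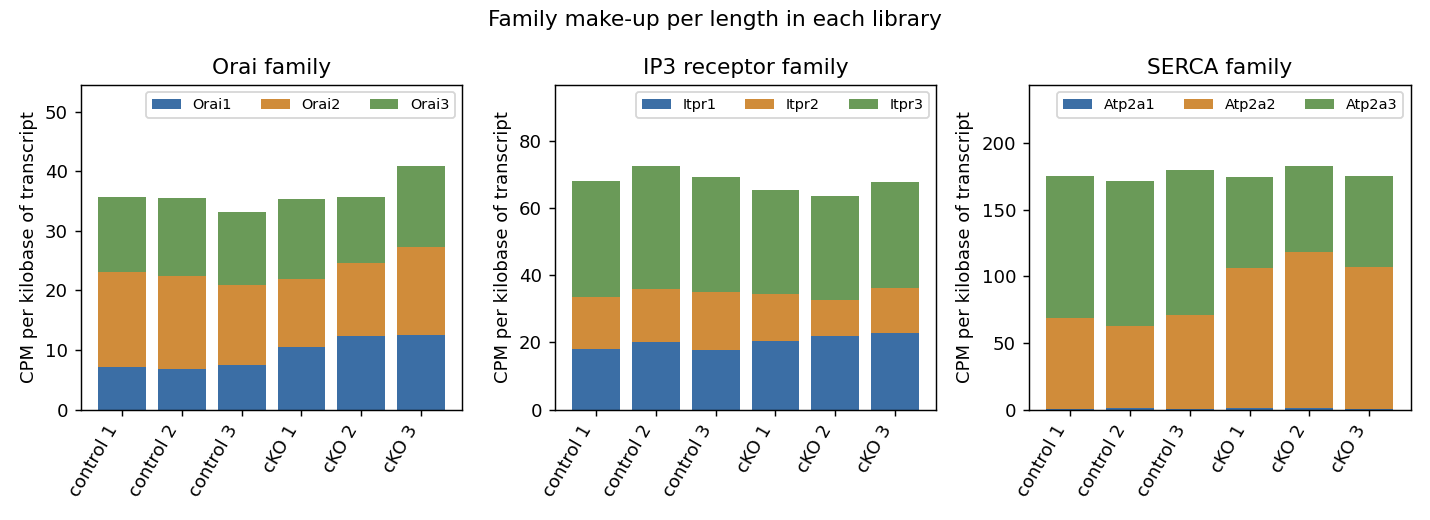
Stacked bars give the level of each family member per length (y axis, CPM per kilobase of transcript) in each control and cKO library, for the Orai, IP3 receptor and SERCA families. Orai1 takes a larger part of the Orai bar in cKO, and Atp2a2 replaces Atp2a3 as the larger part of a SERCA bar whose height overlaps between groups.

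STIM1 and STIM2 are the ER calcium sensors that gate ORAI channels, and STIM2 responds to smaller losses of store calcium. Stim1, at chr7:102267806-102437319 on the plus strand, was at 85.3, 81.5 and 88.4 CPM in cKO and 87.5, 86.3 and 88.6 CPM in control. These ranges overlap, and the log2 fold change of -0.04 (SE 0.0534) did not pass (edgeR adjusted p = 0.572). Stim2, at chr5:53998499-54121057 on the plus strand, was at 27.6, 33.3 and 31.9 CPM in cKO and 25.0, 24.3 and 25.3 CPM in control. All cKO libraries lay above the controls, with cKO 1 closest to them. The log2 fold change of 0.32 (SE 0.0923) passed (edgeR adjusted p = 0.0165). The call was lost without cKO 2, at 0.26 (edgeR adjusted p = 0.0663), and without cKO 3, at 0.29 (edgeR adjusted p = 0.0633). Per length Stim1 was 3.34 ± 0.386 times Stim2 in cKO and 4.25 ± 0.0284 times in control, and the ratios did not overlap. The sum of the pair overlapped between groups, at 27.1 ± 0.887 against 26.4 ± 0.370 CPM per kilobase.

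The IP3 receptors are the release channels of the ER, and the 3 genes did not move in 1 direction. Itpr1, at chr6:108213096-108551109 on the plus strand, was at 202, 217 and 226 CPM in cKO and 177, 199 and 174 CPM in control. The groups did not overlap, with control 2 just below cKO 1. The log2 fold change was 0.23 (SE 0.0655, edgeR adjusted p = 0.0153). The call was lost without cKO 3, at 0.19 (edgeR adjusted p = 0.0588), and without control 3, at 0.19 (edgeR adjusted p = 0.0502).

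Itpr2, at chr6:146108299-146502223 on the minus strand, was at 116, 96.2 and 115 CPM in cKO and 135, 137 and 144 CPM in control. All cKO values lay below the controls, cKO 2 furthest. This was a log2 fold change of -0.35 (SE 0.0749, edgeR adjusted p = 0.00337). Itpr3, at chr17:27057304-27122223 on the plus strand, was at 281, 279 and 285 CPM in cKO and 312, 329 and 311 CPM in control, again without overlap. The log2 fold change was -0.17 (SE 0.0469, edgeR adjusted p = 0.0120), smaller than 1.5-fold, as were those of Itpr1 and Itpr2.

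Itpr3 had the highest level per length of the 3 receptor genes in both groups. It made up 47.7% ± 1.00 of the family sum in cKO and 50.4% ± 0.628 in control. Itpr1 made up 33.1% ± 1.76 in cKO and 26.5% ± 1.19 in control, and Itpr2 made up 19.2% ± 2.23 and 23.2% ± 1.57. None of these shares overlapped between groups. The family sum was 65.8 ± 2.12 CPM per kilobase in cKO and 70.1 ± 2.27 in control, also without overlap.

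SERCA pumps refill the ER store, and 2 pump genes moved in opposite directions. Atp2a3 encodes SERCA3, the isoform known from blood cells, and lies at chr11:72961169-72993044 on the plus strand. It was at 311, 295 and 311 CPM in cKO and 487, 493 and 493 CPM in control. The 2 groups were far apart next to the spread within them, with SDs of 9.41 and 3.87 CPM. The mean was 306 CPM in cKO and 491 CPM in control, and the log2 fold change was -0.68 (SE 0.0469, edgeR adjusted p = 3.15e-06). Atp2a2, which encodes the widely expressed SERCA2 and is named here because the family sum turns on it, was at 472, 528 and 487 CPM in cKO and 305, 290 and 313 CPM in control. It rose in all 3 cKO libraries, with a log2 fold change of 0.71 (SE 0.0568, edgeR adjusted p = 7.15e-06).

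Per length the order of the 2 pump genes turned. Atp2a3 was at 67.1 ± 2.07 CPM per kilobase in cKO and 108 ± 0.838 in control, while Atp2a2 was at 109 ± 6.68 in cKO and 66.7 ± 4.28 in control (SD, n = 3 each). The ratio of Atp2a3 to Atp2a2 was 0.650, 0.552 and 0.643 in cKO and 1.58, 1.74 and 1.54 in control. It lay below 1 in every cKO library and above 1 in every control library. Atp2a1, the SERCA gene of fast muscle, stayed under 1 CPM per kilobase in all 6 libraries. The family sum was 174, 183 and 175 CPM per kilobase in cKO and 175, 171 and 180 in control, and these ranges overlap.

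The promoters of Orai1 and Atp2a3 are shown because these were the members taken for their role that rose and fell by more than 1.5-fold. RefSeq promoters on GRCm38.p6 were found for 8 of the 10 genes, all but Cacna1a and Itpr1. The 250 bases before each start are printed 5′ to 3′, at chr5:123014824-123015073 (plus strand) for Orai1 and chr11:72960919-72961168 (plus strand) for Atp2a3. Capitals mark the GC box GGGCGG on either strand.
Orai1: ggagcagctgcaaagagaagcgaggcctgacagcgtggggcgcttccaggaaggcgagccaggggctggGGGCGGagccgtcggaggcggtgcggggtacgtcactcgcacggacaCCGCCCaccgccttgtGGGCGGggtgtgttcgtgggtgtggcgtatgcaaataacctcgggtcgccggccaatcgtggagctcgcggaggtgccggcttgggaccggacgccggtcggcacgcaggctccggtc
Atp2a3: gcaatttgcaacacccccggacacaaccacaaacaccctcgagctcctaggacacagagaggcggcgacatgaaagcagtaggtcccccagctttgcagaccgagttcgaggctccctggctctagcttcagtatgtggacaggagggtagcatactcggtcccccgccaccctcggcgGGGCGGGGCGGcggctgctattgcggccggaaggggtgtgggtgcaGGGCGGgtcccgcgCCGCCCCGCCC

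The Orai1 window held 3 GC boxes and 30 CpG dinucleotides at 70.8% GC. The Atp2a3 window held 5 GC boxes, with neighbouring boxes sharing a base in both clusters, and 20 CpG dinucleotides at 66.8% GC. Both are GC-rich next to the median of 52.4% GC and 6 CpG dinucleotides over 32851 promoters of the same length, of which 32.7% held a GC box. A GC box was present in all 8 windows, those of the genes that rose, fell and did not pass. The letters GGAAA, the core of NFAT sites, were found on either strand in the windows of Orai2, where they overlap the GC box, and Orai3 only, against 55.6% of all promoters. The E box CACGTG was found in those of Orai2 and Itpr3, against 6.02%. TATAAA was in none of the 8, against 12.4%. These matches describe the sequence and were not tested for binding.

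**Figure D3:**
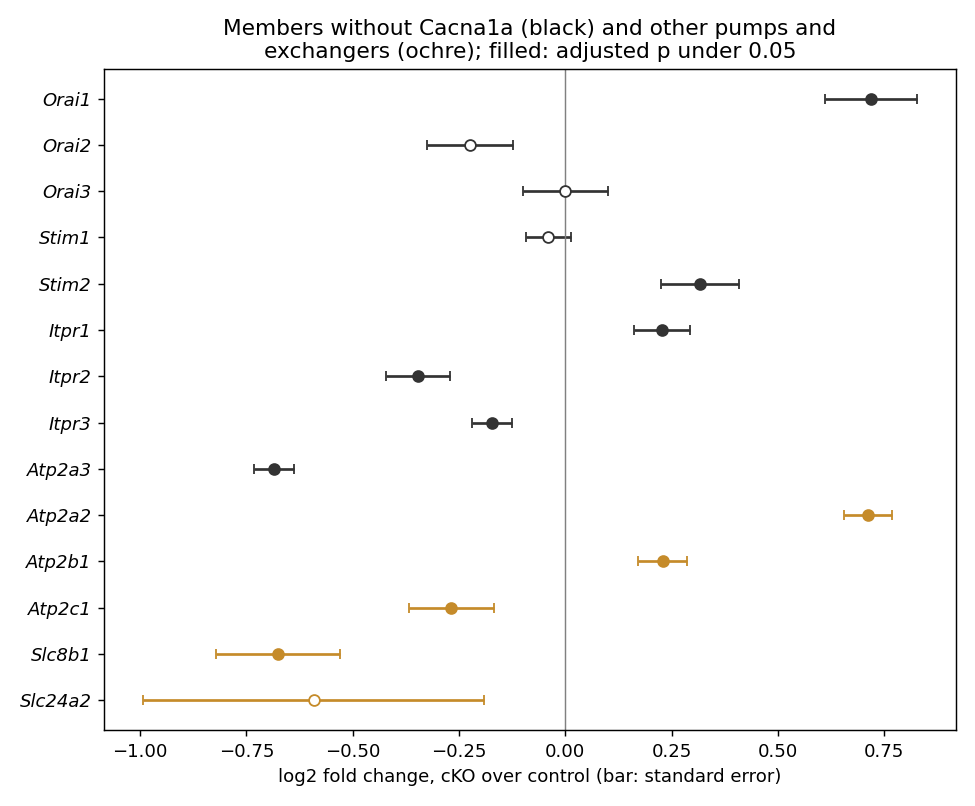
Points give the log2 fold change of cKO over control (x axis) and bars its standard error, for the 9 members other than Cacna1a (black) and for the pumps and exchangers whose 2 group means sum to more than 10 CPM (ochre). Filled points passed an adjusted p of 0.05, with Atp2a2 at 0.71 and Atp2a3 at -0.68 near the ends.

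Ranked per length within control, the members ran from Atp2a3, Itpr3, Stim1 and Itpr1 through Itpr2, Orai2, Orai3 and Orai1 to Stim2 and Cacna1a. In control the only neighbours whose libraries overlapped were Itpr2 and Orai2, at 16.2 ± 0.951 and 15.0 ± 1.35 CPM per kilobase. In cKO Atp2a3 and Itpr3 again led and Stim2 and Cacna1a again came last. There, Itpr1 and Stim1 overlapped, at 21.8 ± 1.26 and 20.8 ± 0.849 CPM per kilobase. Orai2, Orai3, Itpr2 and Orai1 also overlapped in cKO, each with its neighbour in the order, between 11.8 and 12.8 CPM per kilobase on average.

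Cacna1a, at chr8:84388440-84640246 on the plus strand, had the lowest level per length of the 10 genes in both groups. It was at 14.7, 19.8 and 20.6 CPM in cKO and 2.77, 3.49 and 3.59 CPM in control. Those levels rest on 668, 889 and 874 estimated counts in cKO and 125, 137 and 148 in control. The lowest cKO library was well above the highest control library, which the choice of this gene brings with it. The mean was 18.4 ± 3.18 CPM in cKO and 3.28 ± 0.448 CPM in control (SD, n = 3 each), 5.59-fold higher, with a fitted log2 fold change of 2.48. Of the 13296 genes tested, 118 had a larger log2 fold change. Per length it rose from 0.414 ± 0.0565 CPM per kilobase in control to 2.32 ± 0.401 in cKO, which is still below Stim2 in either group.

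All counts of Cacna1a stood on 1 of its 4 listed RefSeq transcripts, and the other 3 were at 0 in all libraries. An annotated gene on the opposite strand, Gm16183, shares 435 bases of exon with Cacna1a. Antisense genes also share exon with Itpr1 (Gm44040, 108 bases, and Gm44101, 181 bases), Itpr3 (Itpr3os, 233 bases) and Orai1 (Gm2479, 7 bases). None of these has a row of its own in the count table, and whether the counting used strand is not given, so reads of such pairs cannot be told apart. Neuronal markers were low and did not separate the groups in sum, at 17.7 to 20.1 CPM in cKO and 15.7 to 23.4 CPM in control, nearly all of it Gad1. Of 3 that could be tested, Syp rose, with 27, 55 and 45 counts in cKO and 15, 15 and 16 in control (log2 fold change 1.38, edgeR adjusted p = 0.0386). Snap25 was at 0 in every library and Rbfox3 at no more than 3 counts. Their part in the level of Cacna1a was not tested.

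Many, but not all, voltage-gated calcium channels join 1 pore subunit with auxiliary β, α2δ and, in some, γ subunits. Besides Cacna1a, 8 of 9 pore genes could be tested, and 1 rose, 1 fell and 6 did not pass. That is 25% passing, against 48.6% of all genes tested. Cacna1g, a T-type pore gene, is the gene counted as higher, with 53, 50 and 38 counts in cKO and 7, 0 and 0 in control. No control library reached the filter's cutoff of 0.229 CPM, so Cacna1g entered the test through cKO alone and no p or fold change is read from it. Cacna1s, the pore gene of skeletal muscle, was at 2.62, 2.82 and 3.09 CPM in cKO and 5.45, 5.72 and 7.58 CPM in control. It fell in all 3 libraries, with a log2 fold change of -1.14 (SE 0.192, edgeR adjusted p = 0.000754).

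The other pore genes overlapped between groups. Cacna1d was at 14.4 ± 0.971 CPM in cKO against 12.1 ± 2.07 CPM in control, and of the alternatives run it passed only without control 2 (log2 fold change 0.38, edgeR adjusted p = 0.0438). Cacna1e was at 10.2 ± 0.949 against 13.0 ± 2.85 CPM, Cacna1i at 13.8 ± 2.83 against 12.2 ± 1.87 CPM, and Cacna1h at 8.56 ± 1.91 against 10.3 ± 3.31 CPM. Cacna1b was at 3.36 ± 0.494 against 2.96 ± 0.557 CPM, and Cacna1c at 0.148 ± 0.184 against 0.282 ± 0.120 CPM. Cacna1f was at 0 in all libraries.

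Among the auxiliary subunits 8 of 16 could be tested, and 3 rose, 1 fell and 4 did not pass. That is 50% passing, against 48.6% of all genes tested. The 3 counted as higher encode β subunits, which bind the pore and carry it to the membrane. Cacnb3 was at 3.02, 4.20 and 2.99 CPM in cKO and 1.17, 1.58 and 1.04 CPM in control, a log2 fold change of 1.43 (SE 0.274, edgeR adjusted p = 0.00164). Cacnb4 was at 2.56, 2.93 and 3.70 CPM against 1.29, 1.27 and 1.17 CPM, a log2 fold change of 1.30 (SE 0.259, edgeR adjusted p = 0.00203). Neither gene overlapped between groups. Cacnb2 had 45, 40 and 41 counts in cKO and 10, 6 and 9 in control, and like Cacna1g it entered the test through cKO alone, so no p is read from it. The fourth β gene, Cacnb1, did not pass, at 7.64 ± 1.41 CPM in cKO against 8.56 ± 1.29 CPM in control. Cacng6, a γ subunit gene, fell from 106, 55 and 44 counts in control to 24, 16 and 18 counts in cKO (log2 fold change -1.87, SE 0.438, edgeR adjusted p = 0.00524). The α2δ genes Cacna2d1, Cacna2d2 and Cacna2d4 did not pass.

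**Figure D4:**
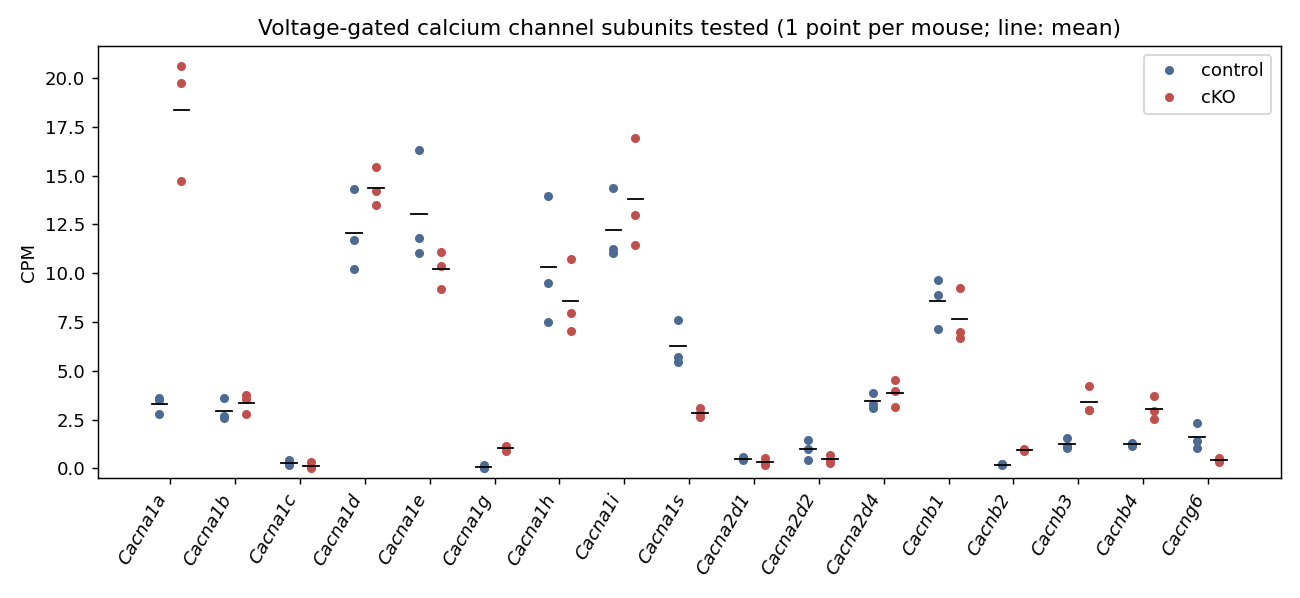
Each voltage-gated subunit gene that could be tested, in CPM (y axis), with 1 point per mouse for control (blue) and cKO (red) and a line at the group mean. Cacna1a lies between 14.7 and 20.6 CPM in cKO and between 2.77 and 3.59 CPM in control, while Cacna1d, Cacna1e, Cacna1h and Cacna1i overlap between groups.

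The share of RefSeq transcripts within a gene could be tested for 2 members, and neither passed. Atp2a3 has 3 transcripts, and the one of 4520 bases held 52.5%, 47.2% and 45.5% of counts in cKO and 53.9%, 50.9% and 55.3% in control. The gene-level test of transcript use (edgeR diffSpliceDGE) gave an adjusted p of 0.885. Itpr2 has 2, and the one of 11679 bases held 0%, 25.5% and 13.7% in cKO and 14.0%, 12.6% and 0% in control (edgeR diffSpliceDGE adjusted p = 0.948). Such shares are StringTie's estimates, and a share of 0% beside one of 25.5% within a group shows their spread.

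Beside the members, 155 calcium genes in 9 lists were read in the same fit; 127 could be tested, of which 30 rose (23.6%) and 36 fell (28.3%). Together these are 52.0% of the genes tested, against 48.6% of all genes (24.1% higher and 24.5% lower), and single lists ran from 25.0% to 65.0%. Without the 4 listed genes that entered the test through cKO alone (Cacna1g, Cacnb2, Tmem178b and Slc8a2), 27 rose and 36 fell of 123, 51.2%, against 48.4% of all genes counted likewise. Among modulators of store-operated entry 2 rose, 2 fell and 3 did not pass, 57.1% passing against 48.6% of all genes. Saraf, whose product turns store-operated entry off, was at 40.4, 46.2 and 40.0 CPM in cKO and 51.8, 57.7 and 60.4 CPM in control, lower in every cKO library. Its log2 fold change was -0.42 (SE 0.0859, edgeR adjusted p = 0.00230). Esyt1, a tether of ER to plasma membrane, fell by 0.28 on the log2 scale (edgeR adjusted p = 0.00142). Sept2, a septin, rose by 0.21 (edgeR adjusted p = 0.0110). Tmem178b, counted among those that rose, had 21, 27 and 30 counts in cKO and 7, 6 and 0 in control. It entered the test through the cKO libraries alone, so no p is read from it, and its call was lost with no filter on low counts and without any one of the 6 libraries. Tmem110, whose product binds STIM1, was at 36.7 ± 1.05 CPM in cKO against 31.7 ± 2.79 CPM in control and did not pass (edgeR adjusted p = 0.0698). It passed with at least 10 counts in every library (edgeR adjusted p = 0.0431), with Xist as a covariate (0.0467) and without control 1 (log2 fold change 0.28, 0.0343). Asph and Cracr2a did not pass.

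Of 11 pumps and exchangers tested, 2 rose, 2 fell and 7 did not pass, 36.4% passing against 48.6% of all genes. Besides Atp2a2, Atp2b1, a plasma membrane calcium pump, rose from 94.4 ± 4.85 CPM in control to 111 ± 3.85 CPM in cKO (log2 fold change 0.23, edgeR adjusted p = 0.00795). Slc8b1, the mitochondrial sodium-calcium exchanger, fell from 12.4 ± 0.608 to 7.76 ± 1.43 CPM (log2 fold change -0.68, edgeR adjusted p = 0.00344). Atp2c1, a Golgi calcium pump, passed narrowly, at 60.7 ± 8.20 CPM in cKO against 73.1 ± 6.54 CPM in control (edgeR adjusted p = 0.0485). Its call held without cKO 1 and was lost without cKO 2 (edgeR adjusted p = 0.114), cKO 3 (0.153), control 1 (0.0675), control 2 (0.0581) or control 3 (0.153). With all 6 libraries it was also lost with the replicate number as a block (edgeR adjusted p = 0.0664), DESeq2 size factors (0.0541) and no filter on low counts (0.0650). Atp2b4 did not pass (log2 fold change 1.15, edgeR adjusted p = 0.0690). It passed with at least 10 counts in every library (edgeR adjusted p = 0.0406), with the replicate number as a block (1.31, 0.0403) and without control 1 (1.83, 0.0111). Slc24a2 passed, of the alternatives run, only without control 3 (-0.98, edgeR adjusted p = 0.00889). Atp2a1, Slc8a1, Slc24a1 and Slc24a5 did not pass. Slc8a2, counted among the 7, had 15, 26 and 20 counts in cKO and 10, 0 and 7 in control and entered the test through cKO alone, so nothing is read from its test.

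Within the ER, 6 of 20 genes of release, leak and lumenal buffering rose, 7 fell and 7 did not pass. That is 65% passing, against 48.6% of all genes tested, with a median log2 fold change of 0.11. Calr, the major calcium-binding chaperone of the ER lumen, was at 1256 ± 56.4 CPM in cKO against 795 ± 91.3 CPM in control, a log2 fold change of 0.66 (edgeR adjusted p = 5.90e-05). Canx, its membrane-bound relative, rose by 0.50 on the log2 scale, and Rcn1, a calcium-binding ER protein gene, by 0.57. Bcl2, which restrains IP3 receptors besides its role in survival, was at 168 ± 10.2 CPM in cKO against 102 ± 11.5 CPM in control (log2 fold change 0.72, edgeR adjusted p = 6.59e-05). In the list of the mitochondrial uniporter 5 of 11 rose, 2 fell and 4 did not pass (63.6% passing, median 0.14). Micu2, which gates the uniporter, fell by 0.70 on the log2 scale (edgeR adjusted p = 0.000367), and Letm1, Mcur1 and Vdac2 rose by 0.53, 0.44 and 0.40.

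Of 18 other calcium-permeable channels and potassium channels that set the driving force, 1 rose, 7 fell and 10 did not pass, 44.4% passing against 48.6% of all genes (median log2 fold change -0.14). Kcnn4, the calcium-activated potassium channel KCa3.1 of lymphocytes, was at 21.1, 24.9 and 19.0 CPM in cKO and 69.8, 57.0 and 67.7 CPM in control. Every cKO library held less than any control library, and the log2 fold change was -1.58 (SE 0.116, edgeR adjusted p = 4.31e-06). Tpcn1, an endolysosomal channel, fell from 29.5 ± 1.40 to 15.7 ± 1.35 CPM (log2 fold change -0.91, edgeR adjusted p = 4.16e-05), and Mcoln2, another, fell by 0.60. Piezo1, a mechanically gated channel, rose from 170 ± 7.81 to 278 ± 12.7 CPM (log2 fold change 0.71, edgeR adjusted p = 5.88e-06).

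Upstream of the receptors, 2 of 20 genes of IP3 production and removal rose, 7 fell and 11 did not pass. That is 45% passing, against 48.6% of all genes tested, with a median log2 fold change of -0.15. Pik3ap1, the adaptor BCAP, fell by 0.62 on the log2 scale (edgeR adjusted p = 9.08e-06), and Plcb2, a phospholipase C, fell by 0.71 (edgeR adjusted p = 0.00584). Inpp1, an inositol phosphatase, fell by 0.96. Itpkb, the kinase that turns IP3 into IP4, rose from 195 ± 19.5 to 315 ± 23.8 CPM (log2 fold change 0.69, edgeR adjusted p = 6.42e-05). Downstream, 8 of 24 genes of calmodulin, calcineurin and NFAT rose, 7 fell and 9 did not pass (62.5% passing, median 0.03). Nfatc2, an NFAT factor of lymphocytes, fell from 32.3 ± 1.83 to 19.5 ± 0.437 CPM (log2 fold change -0.73, edgeR adjusted p = 6.74e-05). Ppp3cc, a calcineurin catalytic subunit gene, fell by 0.60 and Camkk1, a calmodulin-dependent kinase gene, by 1.44. Rcan1, an inhibitor of calcineurin, rose from 7.77 ± 0.269 to 12.6 ± 0.236 CPM (log2 fold change 0.70, edgeR adjusted p = 0.000496).

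Likeness of pattern was measured as the root mean square difference of log2 CPM, each gene centred on its own mean over the 6 libraries, among 11406 genes with a mean of at least 1 CPM. Nearest to Cacna1a were Pkdcc (0.125), Smpd3 (0.133) and B4galt4 (0.137). Pkdcc was at 0, 0.2290 and 0.0971 CPM in control, so no control library reached the filter's cutoff of 0.2294 CPM. Its fitted log2 fold change was 4.51, against 2.48 for Cacna1a. With control 1 at 0 CPM, its distance depends on the constant added to CPM before the log2. The place of Pkdcc in this list is therefore not read as a change of the same size. Nearest to Atp2a3 were Inpp5k (0.0263), Lpxn (0.0266) and Myo1e (0.0289), and nearest to Orai1 were Mrps7 (0.0323), Prr22 (0.0418) and Dgcr8 (0.0432). These lists describe 6 libraries in 2 groups.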

How the data were processed

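After trimming by the authors, reads went through HISAT2 (mm10) and StringTie, whose prepDE script gave the deposited estimated counts of genes and RefSeq transcripts. These were whole numbers without normalization. Tool versions, annotation release, read length setting and strand use are not given in the sources used here. Each library came from an individual mouse. In R 4.3.3, edgeR 4.0.16 kept genes by filterByExpr (minimum count 10), scaled by TMM and fitted cKO against control by the quasi-likelihood test without covariates, with Benjamini-Hochberg adjustment over 13296 of 24499 genes; the scripts were tested on simulated data. Levels per length used GENCODE M21 transcript lengths, linked to RefSeq transcripts, of which 34674 of 36026 matched a gene. Likeness of pattern used log2(CPM + 0.5). Promoters came from RefSeq.

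The members and lists were chosen with earlier results of these data known. Named were all members, Eif3e, every tested gene of 4 lists, up to 4 genes with the largest change in each of the others (passing, mean CPM of at least 1), the 3 nearest genes to Cacna1a, Atp2a3 and Orai1, and cell type markers. Alternatives were DESeq2 1.42.0 and its size factors, total counts, other filters, counts divided by 2, immunoglobulin genes left out, a replicate block, Xist as a covariate and leaving out each library. At these totals 3 counts are 0.0659 to 0.0768 CPM, counting error only. No 2 libraries of a group agreed within sampling noise (chi-square per degree of freedom 15.6 to 26.2), and the 6 were counted as the labels give them. One marker, and the marker sum that needs it, are not reported here.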

Additional observations from a re-analysis of the deposited data

How the results depend on the processing

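Over 15 alternatives, the genes passing numbered 5556 to 6557 (6468 as reported), the 9 members other than Cacna1a 5 or 6 (6), and the listed calcium genes 57 to 68 (66). Leaving out each library gave 5556 to 6112, 5 to 6 and 57 to 64. The 6 members that passed did so under every alternative except those library omissions given for Stim2 and Itpr1. The log2 fold change of Cacna1a ran from 2.37 to 2.62, that of Orai1 from 0.67 to 0.80 and that of Atp2a3 from -0.70 to -0.66. Transcript use was refitted only with DESeq2 size factors, at least 10 counts in every library, counts divided by 2, the block and each library left out. It passed in none of these for Atp2a3 or Itpr2, and no value came for Itpr2 with at least 10 counts in every library.

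Single genes were read over the alternatives for the members and 55 others, which are Eif3e and the genes named from the calcium lists. The cell type markers and the nearest genes were not read over them. Among the genes read, direction changed only for those that did not pass. Orai3 was at 0.00777 with DESeq2 size factors, 0.00436 with total counts, 0.00926 with DESeq2 and 0.00694 with at least 10 counts in every library, and from -0.0542 to 0.0916 without single libraries. Asph was at -0.0444 with Xist as a covariate and from -0.29 to 0.23 without single libraries, Cacna1h from -0.46 to 0.00081 and Slc24a1 from -0.18 to 0.39. The cause was not tested. Of 812 values of 55 other named genes, 782 kept direction and side of the threshold, 16 lost the call (Atp2c1 and Tmem178b), 8 gained it (Atp2b4, Cacna1d, Slc24a2 and Tmem110) and 6 changed direction. Immunoglobulin genes left out removed 1 gene from the test.

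Replicate numbers are shared between groups, but same-numbered libraries deviated together in only 2 of the 3 pairs (r = 0.00107, 0.114 and 0.216). Not every library correlated best with its own number, so the main fit did not take them as pairs. These correlations cannot settle pairing, since sex differs among the mice within each group. For proliferation, death and surface proteins of its iGCBs the paper used paired t tests. With the number as a replicate block 6234 genes passed, with 6 members and 62 listed genes. Of the members and the 55 other genes read over the alternatives, Atp2c1 and Tmem178b lost their call under it and Atp2b4 gained one.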
